A study of Rattus norvegicus with 6 samples.

Results

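Dscaml1 and 8 other neural adhesion molecules of the immunoglobulin superfamily (Dscam, Chl1, Nrcam, Cntn1, Ncam2, Alcam, Lsamp and Negr1) were followed by their gene symbols through gene counts from rat Schwann cells. They had been picked from the same NRG1 against mock comparison that is described here, so their response is a description and supports nothing by itself. Of the 9 genes, 8 had a row among the 17327 genes in the files, and Chl1 had none under that symbol. Only 4 of the 8 (Dscaml1, Nrcam, Ncam2 and Alcam) passed the filter on low counts and were among the 10303 genes tested. The other 4 (Lsamp, Cntn1, Negr1 and Dscam) held between 1 and 29 counts over all libraries together.

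The study asked which transcripts of primary Schwann cells respond to soluble neuregulin 1 (NRG1), which acts on these cells through the ErbB3 and ErbB2 receptors. The cells came from sciatic nerves of adult Wistar rats and formed 3 independent cultures. Each culture gave 1 mock and 1 NRG1 stimulated library, which share a replicate number. All cells, mock included, were starved for 18 h in medium with 2% foetal bovine serum and 10 µM forskolin, an activator of adenylyl cyclase. Before that, all of them had been expanded in medium that already held recombinant soluble NRG1β1, the ligand later given as the treatment. NRG1 cells then received 10 nM recombinant NRG1β1 for 6 h, and mock cells received the same volume of its solvent, phosphate buffered saline with 1% bovine serum albumin.

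Adhesion molecules of this superfamily carry immunoglobulin domains, often followed by fibronectin type III repeats, and bind the same or a related molecule on a neighbouring cell. In nerves they are known for axon guidance, for the contact between axon and glia, and for the assembly of the node of Ranvier. DSCAML1 and DSCAM are large homophilic receptors that let neurites and cell bodies recognise and avoid their own kind. NRCAM and CHL1 belong to the L1 family, whose cytoplasmic tails bind ankyrins. NCAM2 and ALCAM (CD166) are also homophilic, and CNTN1, LSAMP and NEGR1 are held in the membrane by a lipid anchor, the last pair as members of the IgLON family.

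The libraries held 6821590 to 15475018 counts in genes. Levels are given as counts per 1000000 of these totals (CPM), which can be compared between libraries for 1 gene but not between genes, because no transcript length was used. Libraries of culture 1 stood apart: the first principal component carried 81.9% of the variance and separated both of them from the other 4. Transcripts of the fibroblast markers Pdgfra (6512 counts in mock and 6205 in NRG1) and Dcn (4574 and 3203) were abundant in culture 1, whereas in cultures 2 and 3 Pdgfra held 1 to 25 counts and Dcn none. Col1a2, of the same list, was at 0 in both libraries of culture 1 and held 2 counts in all. The summed level of the 5 fibroblast markers, most of which came from Col1a1, was 28933 to 32262 CPM in culture 1 and 13493 to 21294 CPM in the other cultures. The 7 Schwann cell markers summed to 4658 to 5985 CPM in culture 1 and to 12655 to 16161 CPM elsewhere, and all 7 were detected. The 7 neuronal markers summed to 2281 to 8127 CPM, nearly all from the neurofilament genes Nefl and Nefm, which were detected in every library, while Rbfox3 was at 0. The macrophage list summed to 2.47 to 4.59 CPM, mostly from Cd68, with Ptprc and Cd163 at 0. The endothelial list summed to 5.80 to 14.8 CPM, with Tek at 44 to 136 counts a library and Pecam1 and Cdh5 at 0. In these bulk samples fewer cells of a type and less RNA per cell cannot be told apart, and the part of the fibroblast transcripts in the results below was not tested.

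The stricter rule called a gene regulated when its adjusted p was 0.01 or less and its log2 fold change exceeded 1 in size, and the looser rule called it changed when the adjusted p was 0.05 or less. Both were read from the fit with culture as a block. Among the members 1 (Dscaml1) was regulated upwards and none downwards, where 1.58% of all genes tested were regulated upwards and 1.76% downwards. Of the 4 tested members 3 had an unadjusted p under 0.05 in edgeR, as had 3537 of all 10303 genes tested, and DESeq2 also regulated none of them downwards. At the looser rule 2 were higher (Dscaml1 and Nrcam), 1 was lower (Ncam2) and 1 was not called (Alcam), where 10.8% of all genes tested were higher and 10.6% lower. Nothing is read from these counts, since the members were selected on this contrast.

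Dscaml1 was low in mock cells and high after NRG1. In mock the libraries of cultures 1, 2 and 3 held 2, 21 and 70 counts, or 0.260, 3.08 and 5.62 CPM. After NRG1 they held 78, 418 and 724 counts, or 10.1, 47.3 and 46.8 CPM. The groups did not overlap, since the lowest NRG1 library (culture 1) lay above the highest mock library (culture 3). How many of all genes tested separate in this way was not counted. The mean rose from 2.99 ± 2.68 to 34.7 ± 21.3 CPM (SD, n = 3 each), a fitted 11.7-fold difference (log2 fold change 3.55, SE 0.24). This was rank 3 among the 10303 genes tested when ordered by log2 fold change.

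The size of the Dscaml1 response was uneven among the cultures. Within pairs the ratio of NRG1 to mock was 38.7 in culture 1 (95% exact interval 10.4 to 325, from only 2 mock counts), 15.3 in culture 2 (9.91 to 25.1) and 8.32 in culture 3 (6.51 to 10.8). These intervals cover counting error only. Cultures 2 and 3 reached nearly the same NRG1 level from mock levels of 3.08 and 5.62 CPM. With culture 1 left out the log2 fold change was 3.40, and with culture 2 or culture 3 left out it was 3.33 or 4.17. Without the pairing by culture the fitted log2 fold change was 3.51, with an adjusted p of 0.22 in edgeR's quasi-likelihood test. DESeq2 without the pairing, a fit added after the data were seen, gave 3.55 with an adjusted p of 0.0042, so the 2 tools differed.

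**Figure D1:**
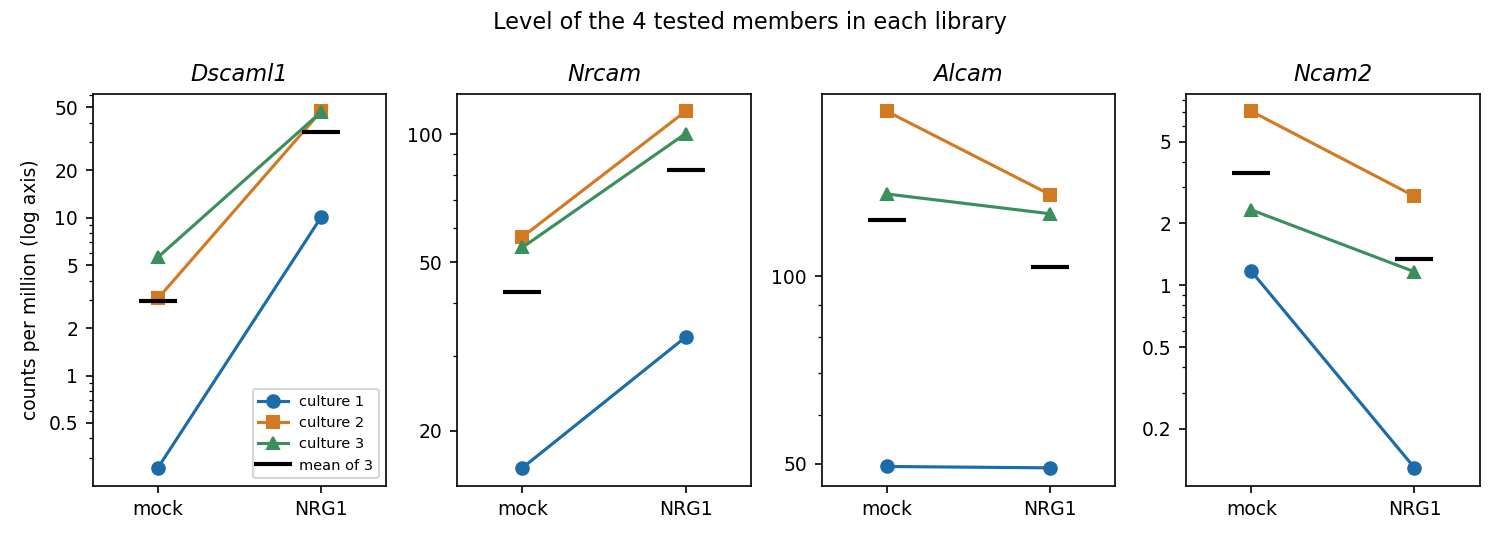
Level of Dscaml1, Nrcam, Alcam and Ncam2 in CPM (log axis, a separate scale in each panel) in the mock and the NRG1 library of each culture; lines join the pair of 1 culture and black bars are means of 3. All 3 lines of Dscaml1 and Nrcam climb and all 3 of Ncam2 descend, and culture 1 has the lowest point of each group in every panel.

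Nrcam, which in nerve takes part in gathering sodium channels at the node, was about doubled by NRG1 within each culture. Mock libraries of cultures 1, 2 and 3 held 126, 391 and 674 counts (16.4, 57.3 and 54.1 CPM). NRG1 libraries held 258, 1002 and 1553 counts (33.3, 113 and 100 CPM). On this scale the groups overlapped, because the NRG1 library of culture 1 lay below the mock libraries of cultures 2 and 3. The means were 42.6 ± 22.8 and 82.3 ± 42.9 CPM (SD, n = 3), and the fitted difference within pairs was 1.95-fold (log2 fold change 0.97, SE 0.12).

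The pairs of Nrcam agreed closely, with NRG1 to mock ratios of 2.03 (95% exact interval 1.64 to 2.53), 1.98 (1.76 to 2.23) and 1.85 (1.69 to 2.03) in cultures 1, 2 and 3. Nrcam therefore met the adjusted p of the stricter rule but stayed just under its fold threshold. With culture 3 left out its log2 fold change was 1.01 and it passed both, so that 2 members were then regulated upwards. With culture 1 left out it was 0.94.

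**Figure D2:**
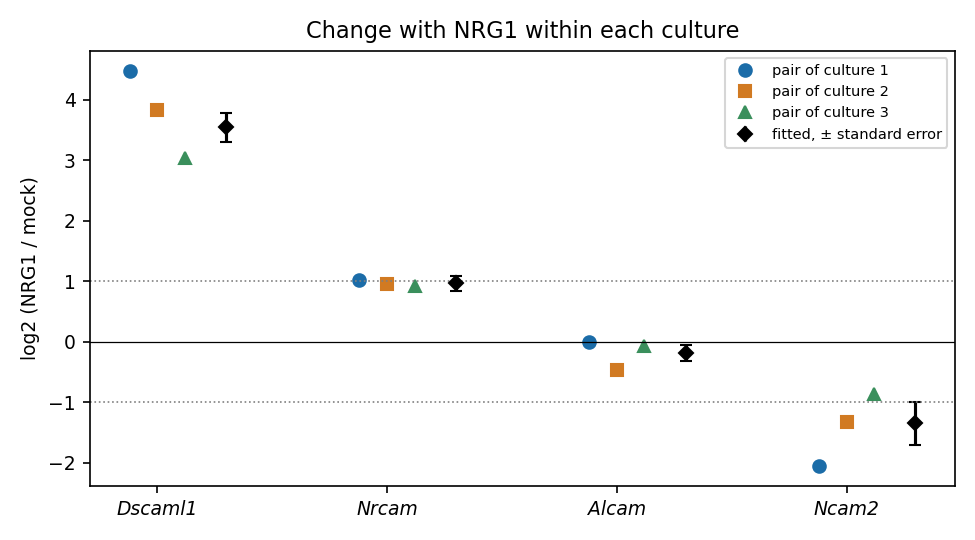
Log2 ratio of NRG1 to mock for each culture (symbols) of the 4 tested members, computed with a prior count of 2 that draws pairs with few counts towards 0, with the fitted log2 fold change and its standard error. The 3 cultures of Nrcam lie close together (0.92 to 1.02), those of Dscaml1 spread from 3.04 to 4.49, and those of Alcam lie from -0.46 to near 0.

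Ncam2, a relative of NCAM1 best known from olfactory axons, went the other way. Mock libraries of cultures 1, 2 and 3 held 9, 48 and 29 counts (1.17, 7.04 and 2.33 CPM). NRG1 libraries held 1, 24 and 18 counts (0.129, 2.71 and 1.16 CPM). Each NRG1 library was below the mock library of its own culture, but the groups overlapped across cultures. The mean was 3.51 ± 3.11 CPM in mock and 1.34 ± 1.30 CPM after NRG1 (SD, n = 3), and the fitted log2 fold change was -1.35 (SE 0.36).

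The Ncam2 difference rests on few counts. The ratio of mock to NRG1 was 9.07 in culture 1, where a single NRG1 count leaves a 95% exact interval of 1.26 to 397, 2.59 in culture 2 (1.56 to 4.43) and 2.00 in culture 3 (1.07 to 3.83). Its adjusted p was 0.015 in edgeR's quasi-likelihood test, 0.090 in DESeq2 and 0.10 without culture 2, so the looser call was lost with DESeq2 and without culture 2. With no filter on low counts it was 0.0041 and Ncam2 counted as regulated downwards. Without culture 1 the log2 fold change was -1.20.

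Alcam, a homophilic molecule that also binds CD6 on lymphocytes, was not called in either direction. Mock libraries of cultures 1, 2 and 3 held 381, 1257 and 1690 counts (49.5, 184 and 136 CPM). NRG1 libraries held 382, 1198 and 1952 counts (49.3, 135 and 126 CPM). The groups lay across each other, and the means were 123 ± 68.3 and 104 ± 47.3 CPM (SD, n = 3). The NRG1 to mock ratio was 0.995 in culture 1 (95% exact interval 0.861 to 1.15), 0.735 in culture 2 (0.678 to 0.796) and 0.930 in culture 3 (0.871 to 0.993). The fitted log2 fold change was -0.19 (SE 0.13) with an adjusted p of 0.33, which does not show that the level was the same in both groups.

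The lipid-anchored members were close to the detection floor. An absence of counts in a library allows up to 3 counts, or 0.194 to 0.440 CPM depending on the library. Lsamp held 4, 5 and 6 counts in mock and 3, 4 and 7 counts after NRG1 in cultures 1, 2 and 3. Its NRG1 to mock ratios of 0.744, 0.617 and 0.939 had 95% exact intervals that all included 1 (0.109 to 4.40, 0.122 to 2.87 and 0.270 to 3.38). Lsamp was thus counted at a trace in every library, no higher than the floor in the NRG1 library of culture 1. No difference was detectable at this depth.

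Cntn1, a contactin that pairs with CASPR in the axonal membrane beside the node, held 7, 1 and 1 counts in mock and 4, 0 and 0 counts after NRG1. Of these 13 counts 11 came from culture 1. In that culture the NRG1 to mock ratio was 0.567 with an interval of 0.122 to 2.23.

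Negr1 held 0, 3 and 1 counts in mock and none after NRG1. Dscam, the closest relative of Dscaml1, held 1 count in the mock library of culture 3 and none in the other 5 libraries. Neither gene rose above the floor in any library, so no fold is given.

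**Figure D3:**
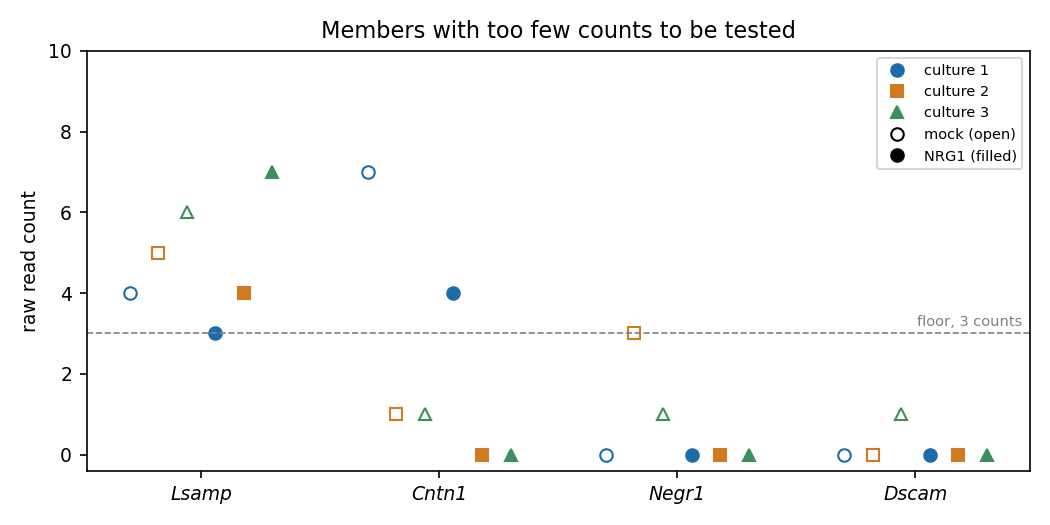
Raw counts (not scaled to library size) of Lsamp, Cntn1, Negr1 and Dscam in each of the 6 libraries, with the floor of 3 counts drawn as a line. Lsamp sits at 3 to 7 counts throughout, Cntn1 is above the floor in culture 1, and Negr1 and Dscam are at or under it in all libraries.

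The difference between cultures was a measure that the choice of members had not used. It was tested by edgeR's quasi-likelihood F test over the culture terms, with Benjamini-Hochberg adjustment over all genes, in which 27.0% of all genes tested had an adjusted p of at most 0.01. All 4 tested members had an adjusted p of at most 0.01. So had, in either direction, 23 of 36 further immunoglobulin adhesion molecules (63.9%) and 7 of 15 binding partners (46.7%), which are described below. Such a difference was thus not particular to the tested members, which were lower in culture 1 than in the mean of cultures 2 and 3. The log2 difference was -2.38 for Dscaml1 (SE 0.28, adjusted p = 2.1e-05) and -1.69 for Nrcam (SE 0.14, adjusted p = 6.0e-07). It was -2.17 for Ncam2 (SE 0.48, adjusted p = 0.00069) and -1.51 for Alcam (SE 0.15, adjusted p = 2.4e-06). Ncam2, with 9 and 1 counts in culture 1, had passed the filter on low counts through cultures 2 and 3, where it was higher. Dscaml1, with 2 and 78 counts in culture 1, had also needed cultures 2 and 3 to pass, where it was higher. Nothing is read from the culture test of either gene.

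The Schwann cell transcription factor Sox10 was also lower in culture 1, with a log2 difference of -1.41 (SE 0.15), near those of Nrcam and Alcam and smaller in size than that of Dscaml1. When culture 1 was left out, Ncam2 differed between the remaining cultures (adjusted p = 0.0048). Dscaml1, Nrcam and Alcam then had adjusted p-values of 0.79, 0.86 and 0.53. The log2 difference of culture 3 from culture 2 was 0.25 (SE 0.25) for Dscaml1, -0.14 (SE 0.14) for Nrcam, -0.29 (SE 0.15) for Alcam and -1.45 (SE 0.38) for Ncam2.

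**Figure D4:**
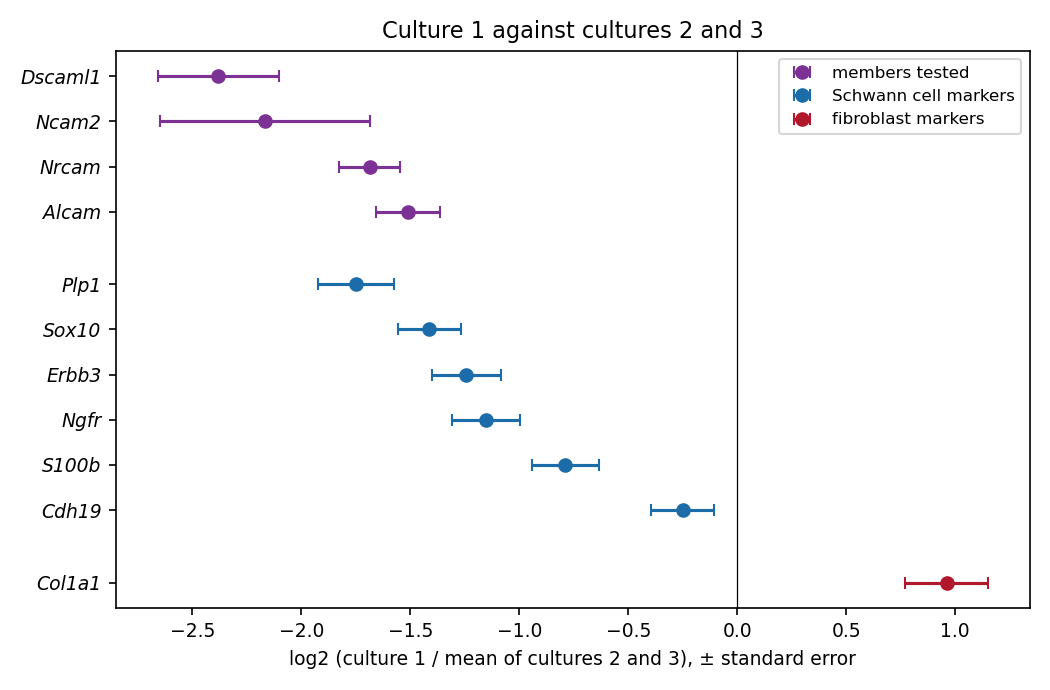
Log2 ratio of culture 1 to the mean of cultures 2 and 3, with its standard error, for the tested members, 6 of the 7 Schwann cell markers and Col1a1, the marker of the fibroblast list with over 3 counts in every library. The members lie between -2.38 and -1.51, on the same side as the Schwann cell markers, and Col1a1 lies at 0.96.

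Sox10 itself was not called between mock and NRG1 (log2 fold change 0.11, SE 0.13, adjusted p = 0.58), and member levels were therefore also expressed per 1000 Sox10 counts of the same library. On this scale Dscaml1 was 0.675, 2.85 and 4.69 in the mock libraries of cultures 1, 2 and 3 and 21.8, 44.2 and 37.2 in the NRG1 libraries. The within-pair ratios were 32.3, 15.5 and 7.91, close to those on the CPM scale. Nrcam was 42.5, 53.0 and 45.2 in mock and 72.1, 106 and 79.7 after NRG1, so that its groups, which overlapped in CPM, lay apart. This scale was added after the data were seen, and how many other genes separate on it was not counted. Alcam was 129, 170 and 113 in mock and 107, 127 and 100 after NRG1. Ncam2 stayed uneven, at 3.04, 6.51 and 1.94 in mock and 0.279, 2.54 and 0.924 after NRG1. How far the makeup of culture 1 accounts for its lower member levels was not tested.

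Of all genes tested, the 5 whose log2 CPM over the 6 libraries was most like that of Dscaml1 were Tbl3 (Pearson r = 0.999), Bop1 (0.998), LOC499770, Wdr4 and Ipo4 (0.997 each). Tbl3 and Bop1 are known for ribosome biogenesis, Wdr4 for transfer RNA methylation and Ipo4 for nuclear import. Their own log2 fold changes were 0.80, 1.27, 0.49, 0.59 and 1.15, all smaller than that of Dscaml1. Among the members Nrcam was the most like Dscaml1 (r = 0.895), followed by Alcam (0.425) and Ncam2 (-0.079). Among the r values of all genes tested these lay at percentiles 93.3, 69.0 and 49.8. Many genes outside the members were thus more like Dscaml1 than Nrcam was. The 6 points share the culture and treatment differences described above, and the values of r are given as a description.

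The rest of the immunoglobulin adhesion family served as the setting for these members. Of 54 further genes listed, 49 had a row and 36 were tested. None was regulated upwards and 1 downwards, 3 were changed upwards and 9 downwards (10.8% and 10.6% of all genes tested), and 24 were not called by edgeR's quasi-likelihood test, which gave 17 of the 36 an unadjusted p under 0.05 (3537 of all 10303 genes). The median log2 fold change of the 36 was -0.18, against -0.03 over all genes tested. The family gene regulated downwards was Mag, the myelin-associated glycoprotein of Schwann cells, at 24.2 ± 14.9 CPM in mock and 10.3 ± 4.77 CPM after NRG1 (log2 fold change -1.17, SE 0.17, adjusted p = 0.00025).

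Dscaml1 had been picked from this same contrast, so nothing is read from its distance to the 36 relatives. Their highest log2 fold change was 0.90, against 3.55 for Dscaml1. The 3 that rose were Pvr, a nectin-like molecule (log2 fold change 0.90, adjusted p = 0.00078), Igsf3 (0.67, adjusted p = 0.011) and the Slit receptor Robo1 (0.56, adjusted p = 0.028). Pvr went from 14.5 ± 1.26 to 26.9 ± 0.540 CPM (SD, n = 3), a tighter spread among cultures than that of any tested member. The 9 that fell were Mag, Mcam, Igsf11, Cadm2, Cadm3, Jam2, Jam3, Bcam and Igsf8. Pvr, Mag, Mcam and Igsf11 passed the looser rule in DESeq2 with the block and with each replicate left out. Cadm3 passed it without replicate 1 (adjusted p = 0.010 in edgeR's quasi-likelihood test). It had no adjusted p in DESeq2 or without replicate 2 or 3, so its call was not checked there. The other 7 lost the call in at least 1 of these fits, with Robo1 at an adjusted p of 0.073 in DESeq2 and 0.20 without replicate 1, and Igsf3 at 0.061 without replicate 2 and 0.068 without replicate 3.

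The closest relatives of the members are given for comparison, and differences between genes were not tested. L1cam, of the family of Nrcam, had a log2 fold change of -0.36 (SE 0.14, adjusted p = 0.089). Ncam1, the relative of Ncam2, was at 504 ± 236 CPM in mock and 485 ± 122 CPM after NRG1 (log2 fold change 0.03, SE 0.16, adjusted p = 0.91), with a sign that turned when the pairing or culture 1 or 3 was dropped. Mcam, grouped with Alcam, fell from 1134 ± 469 to 583 ± 141 CPM (log2 fold change -0.89, SE 0.14, adjusted p = 0.00063). Cntn3, the contactin with the highest CPM, had a log2 fold change of -0.31 (SE 0.32, adjusted p = 0.54). Sdk2, a sidekick that resembles the DSCAM proteins in domain makeup, had a log2 fold change of 0.52 (adjusted p = 0.075).

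**Figure D5:**
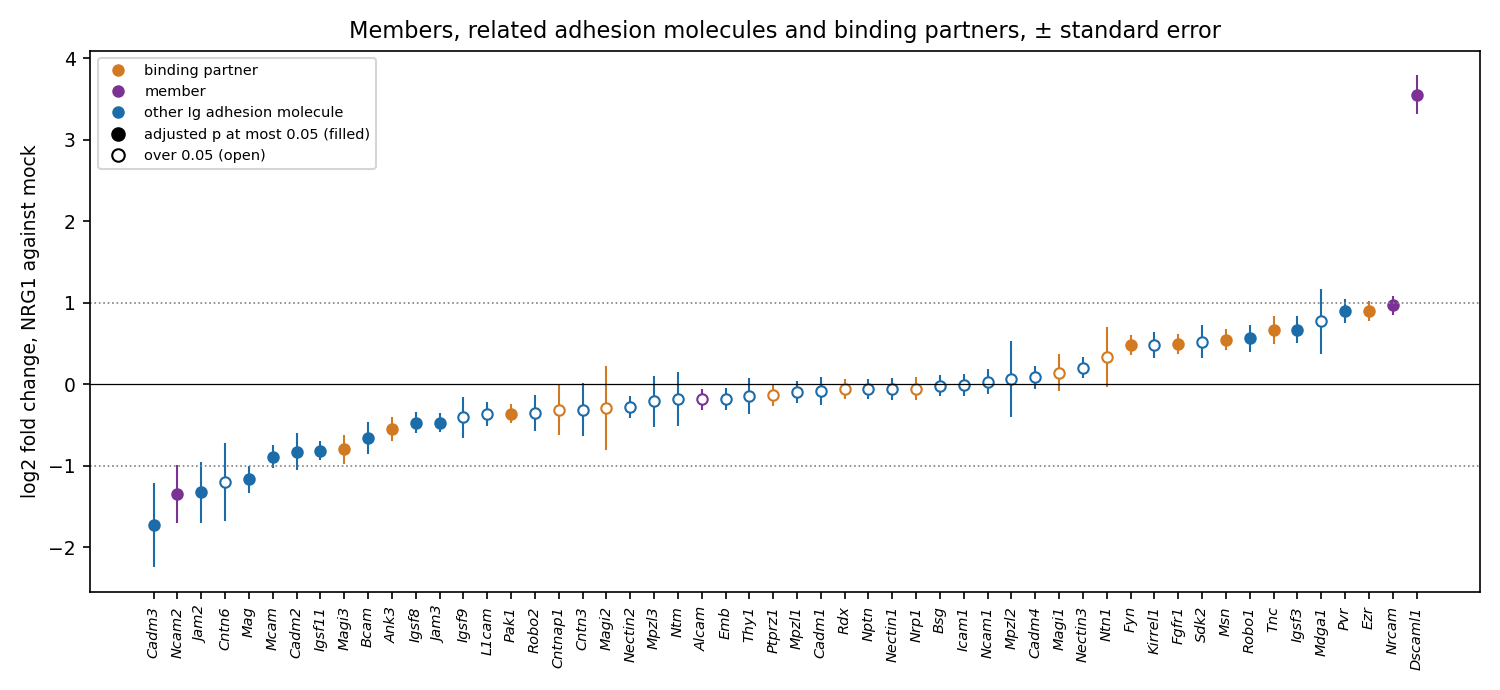
Fitted log2 fold change of NRG1 against mock (vertical axis, with standard error) for the tested members, 35 of the 36 other tested immunoglobulin adhesion molecules and the binding partners (horizontal axis, in order of the value); filled points passed an adjusted p of at most 0.05. Dscaml1 at 3.55 lies apart from the other genes, which lie between -1.73 and 0.97. It was picked from this same contrast, so nothing is read from its distance.

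Known partners of the members were examined in the same way. Of 23 partner genes listed, 20 had a row and 15 were tested, and none was regulated at the stricter rule by edgeR or by DESeq2, while 8 had an unadjusted p under 0.05 (3537 of all 10303 genes). At the looser rule 5 were higher, 3 lower (10.8% and 10.6% of all genes tested) and 7 not called, and the median log2 fold change was -0.05. The membrane to actin linkers Ezr (log2 fold change 0.90, adjusted p = 0.00018) and Msn (0.55, adjusted p = 0.0070) rose. So did the matrix ligand Tnc (0.66, adjusted p = 0.014), the receptor Fgfr1 (0.49, adjusted p = 0.0085) and the kinase Fyn (0.48, adjusted p = 0.011). Ank3, the ankyrin G that holds Nrcam at nodes, fell (-0.55, SE 0.15, adjusted p = 0.015), as did the scaffold Magi3 (-0.80, adjusted p = 0.0051) and the kinase Pak1 (-0.36, adjusted p = 0.042). Ezr, Fgfr1 and Magi3 kept their calls in DESeq2 with the block and with each replicate left out. Msn, Tnc and Fyn lost theirs with at least 1 replicate left out, Ank3 without replicate 2 (adjusted p = 0.075), and Pak1 in DESeq2 (0.12) and with each replicate left out (0.060 to 0.25). Nrcam and Ank3 thus had opposite signs, with the pairs of Ank3 at -0.58, -0.90 and -0.16 and those of Nrcam at 1.02, 0.96 and 0.92 on the log2 scale in cultures 1, 2 and 3.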

How the data were processed

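The authors sequenced polyadenylated RNA and deposited 1 table of raw gene counts per library (3 mock, 3 NRG1). The submitters' processing notes name TopHat2 2.0.10 and HTSeq; the strand setting of the counting is not given in the sources used here. The 5 summary lines of each table were kept out, and genes held 47.0% to 49.9% of the tallied reads. No tested member overlapped another gene with a row in RefSeq's annotation.

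Counts were fitted in R 4.3.3 with edgeR 4.0.16 (TMM scaling, filterByExpr with a minimum count of 10, quasi-likelihood F test, Benjamini-Hochberg adjustment over 10303 genes), with the replicate number as a block. Each standard error is the size of a log2 fold change over the root of its F statistic. Log2 CPM and log2 ratios within pairs used a prior count of 2. Samples of 1 number came from 1 culture, and their deviations from the group means correlated at 0.954, 0.809 and 0.886. Mismatched libraries correlated negatively where culture 1 was involved. Between cultures 2 and 3 they correlated at 0.694 (mock 3 with NRG1 2) and 0.699 (mock 2 with NRG1 3), so most of this contrast lies in culture 1. Ratios within pairs carry 95% exact (Clopper-Pearson) intervals, which like the floor of 3 counts cover counting error only. DESeq2 1.42.0, RLE scaling, no filter, no block and each replicate left out were the alternatives, and a minimum count in 3 samples, levels per Sox10 count and DESeq2 with no block were added after seeing the data. The scripts were tested on simulated data.

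The members and lists were chosen with earlier results of these data known. Named were all members, every regulated gene and the gene of highest CPM per family list, the 5 genes most like Dscaml1, and cell type markers. 1 gene of these lists is not reported here. Relatives and partners past the looser rule, and Sdk2, were named after their values were seen.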

Additional observations from a re-analysis of the deposited data

How the results depend on the processing

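With RLE scaling, and with the minimum count required in 3 samples, each count of calls stayed within 1.5 times its value. Without the replicate block edgeR called 0 genes under either rule, and so 0 members, relatives or partners, with 1334 genes at an unadjusted p under 0.05. DESeq2 without the block regulated 54 genes upwards and 34 downwards, among them 1 member (Dscaml1). DESeq2 with the block called 659 genes, 0 members and 5 relatives changed downwards. No low-count filter gave 1 member regulated downwards and 5 relatives changed upwards. Leaving out each replicate in turn gave 133 to 202 genes regulated upwards and 122 to 299 downwards, 715 to 1059 changed upwards and 510 to 979 downwards. For members it gave 1 to 2 regulated upwards, 2 changed upwards and 0 to 1 downwards. For relatives it gave 1 to 3 regulated downwards (3 without replicate 1, with Cntn6 and Mcam added to Mag), 1 to 5 changed upwards and 5 to 7 downwards, and for partners 2 to 5 upwards and 1 to 2 downwards. Between cultures 245 (without replicate 1) to 3783 genes and 1 to 4 members differed. The log2 fold change of Ncam1 turned to -0.053 without the block and ranged from -0.12 (without replicate 1) to 0.31 with replicates left out, being negative also without replicate 3, and that of Cadm4 turned to -0.00019 and ranged from -0.079 (without replicate 1) to 0.19. The causes were not tested. Depth limits Ncam2 and the 4 untested members most, each with at most 48 counts in a library.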

Other observations

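Several relatives of the members were found in culture 1 and hardly elsewhere. Thy1, a lipid-anchored immunoglobulin protein also known from fibroblasts, held 9493 counts in mock and 8576 counts after NRG1 in culture 1 and none in the other 4 libraries. Ntm, the IgLON gene with the highest mean CPM, held 232 and 215 counts in culture 1 and 2, 0, 0 and 0 in the mock and NRG1 libraries of cultures 2 and 3 (2 in the mock library of culture 2). Mpzl2 held 47 and 47 counts in culture 1 and at most 1 elsewhere. Igsf3 differed in the same direction, at 684 and 717 CPM in culture 1 against 84.0 to 191 CPM elsewhere. Its NRG1 to mock log2 ratio was 0.08 in culture 1, 1.06 in culture 2 and 0.89 in culture 3, and whether these differ was not tested.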
